A study of Mus musculus with 6 samples.

Results

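The transcripts of p53 and of 29 genes that p53 is known to control or that restrain it were followed in 6 mouse RNA-seq libraries. They were taken by gene name from a table of 54532 genes, and all 30 were found, each in 1 row. The libraries are labelled MIN6, a mouse insulinoma line used as a model of pancreatic beta cells. Of these, 3 carry the genotype label control (titled shc) and 3 the label PP2Ac knockdown (titled sh2); no further treatment is named in the labels. PP2Ac is the C subunit, which holds the active site, of the serine/threonine phosphatase PP2A. The values are FPKM, reads scaled for gene length and library depth, and 14614737 to 16030939 reads per library were recovered from them.

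The transcription factor p53 is held low by MDM2, a ubiquitin ligase that marks it for breakdown, together with the related protein MDM4. After DNA damage and other stresses, kinases phosphorylate p53 and MDM2, p53 accumulates, and it switches on genes for cell cycle arrest, DNA repair, metabolism and cell death, and also Mdm2 itself, which closes a feedback loop. Phosphatases work against those kinases: PPM1D (WIP1) is itself a p53 target, and PP2A is known to dephosphorylate p53, and MDM2 when brought to it by cyclin G1. The MIN6 line was derived from a mouse with a T antigen transgene driven by the insulin promoter, and large T antigen is known to bind p53. That transcript was not analysed here, and RNA levels say nothing of the amount or phosphorylation of the p53 protein.

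A p53 response element consists of a pair of 10-base copies, each with 3 purines, C, 2 bases that are A or T, G and 3 pyrimidines. Since this decamer reads alike on both strands, 1 search covers both. It was searched without mismatch in RefSeq promoter windows (GRCm38.p6, 250 bases before to 50 after each start), which were matched for 23 of the 30 members. It occurred in 9 of these 23 (39.1%) and in 9.55% of the 27025 genes with a window. The windows of the 9 genes are shown because they hold information that the expression values do not use. Most members with a window lack the decamer. Capitals mark the decamer, each sequence runs 5′ to 3′ on the gene's strand, and a match is not evidence of binding.
Trp53 (chr11:69580274-69580303, plus strand): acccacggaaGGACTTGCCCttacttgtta
Mdm2 (chr10:117710925-117710954, minus strand): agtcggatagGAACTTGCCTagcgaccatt
Ppm1d (chr11:85311112-85311141, plus strand): gggcgggggcGAGCTTGCTCttcttgactc
Ccng1 (chr11:40755452-40755481, minus strand): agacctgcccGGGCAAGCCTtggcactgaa
Sesn1 (chr10:41887256-41887285, plus strand): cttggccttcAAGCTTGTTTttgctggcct
Ckap2 (chr8:22186003-22186032, minus strand): ctgtgtctgaAGACATGTCCtgacttgtca
Aen (chr7:78895927-78895956, plus strand): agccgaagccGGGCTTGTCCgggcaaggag
Ei24 (chr9:36797325-36797354, minus strand): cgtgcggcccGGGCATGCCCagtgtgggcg
Polk (chr13:96519399-96519428, minus strand): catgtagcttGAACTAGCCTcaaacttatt
The decamers began between 10 bases (Ei24) and 231 bases (Polk) before an annotated start; Aen, Sesn1 and Polk have a second annotated start, and in Aen the decamer lies inside the window of both. A second copy within 13 bases, with up to 2 mismatches over the pair, was found in Ccng1 (1 mismatch, directly before the capitals), Ckap2 (2 mismatches, directly after them) and Sesn1 (2 mismatches, 3 bases apart). Counted without asking that either copy match fully, but with C and G kept in both, such a pair occurred in 4.71% of all genes with a window. By that looser count the members with a pair were the same 3. Of the 9 genes with a decamer, 4 were higher in knockdown (Sesn1, Ckap2, Aen, Ei24), 2 lower (Mdm2, Polk) and 3 not past the threshold (Trp53, Ppm1d, Ccng1). Among all 23 genes with a window the counts were 8, 5 and 9, with 1 not tested. Of all genes tested, 33.3% were higher and 29.1% lower.

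The libraries carried the label's knockdown in the targeted transcript. Ppp2ca, which encodes the alpha isoform of PP2Ac, fell from 37.6 ± 4.33 to 10.8 ± 0.617 FPKM (SD, n = 3), with a limma adjusted p of 5.35e-06. Markers that define beta cells were mostly missing: Ins1, Ins2, Nkx6-1 and Slc2a2 were listed at 0 in all 6 libraries. The label MIN6, on which the background on that line rests, is therefore in doubt for these libraries. Of 10 beta cell markers 8 had a mean FPKM below 1. The summed FPKM of the 10 was 2.98 to 4.65 in control and 7.99 to 9.57 in knockdown. The other 2 were Pdx1, which averaged 1.68 FPKM in control and 3.96 in knockdown, and Mafa, with 1.78 and 4.86. Both were higher in knockdown (limma adjusted p = 0.000802 and 0.000344). For 14 stromal, endothelial and immune markers, of which 10 had a mean below 1 and 4 were at 0 throughout, the sum was 23.2 to 29.1 in control and 43.9 to 55.8 in knockdown. Of the 4 markers tested, 3 were called higher and 1 lower, where 33.3% and 29.1% of all tested genes were. Col3a1 averaged 0.834 and 31.7 FPKM, Pdgfrb 6.81 and 12.6 and Pdgfra 0.734 and 1.58. Cd68, the 1 called lower, averaged 16.5 and 2.27. Other markers of fibroblasts and of macrophages or immune cells were absent or low. Lum and Adgre1 were at 0 throughout. Dcn averaged 0.0358 and 0.770 FPKM, Csf1r 0.0387 and 0.0314, and Ptprc 0.00341 and 0.00479. These single genes therefore do not name a cell type in these libraries. For 10 duct and acinar markers, of which 7 had a mean below 1, the sum was 682 to 849 and 355 to 394, nearly all of it Spp1. Spp1 and Sox9 were called lower in knockdown and Cela1 higher. Sox9 averaged 7.89 FPKM in control and 1.62 in knockdown, and Cela1 0.108 and 1.93. The share of reads from mitochondrial mRNAs was 3.03% ± 0.370 in control against 1.29% ± 0.0590 in knockdown, and 21572 ± 138 and 19768 ± 200.4 genes had a read (SD, n = 3). These values moved with the groups. With mitochondrial, rRNA and Gm23935 reads removed, 8 members were called higher and 9 lower. Of the 11916 genes tested in that fit, 3428 were higher and 3807 lower. Mdm4 and Dglucy there differed by -1.05 and 1.44 on the log2 scale. The part of the cell type markers in the results was not tested. In bulk RNA, fewer cells of a type and less RNA per cell cannot be told apart. No source says that the replicates are separate cultures, so the p-values set the groups only against the spread between these samples.

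Members of the p53 set moved in both directions, at about the rate of all genes. Of the 30, 28 reached the mean of 1 FPKM needed for the test. In knockdown 9 of the 28 were higher, 8 lower and 11 not past a limma adjusted p of 0.05. Of all 11652 genes tested, 33.3% were higher and 29.1% lower (62.4% in either direction), so the members' shares of 32.1% and 28.6% lie near the background. The median log2 difference, knockdown minus control on the log2(FPKM + 1) scale, was 0.12 for tested members and 0.03 for all tested genes, and the median size regardless of sign was 0.39 and 0.37. The 3 knockdown libraries lay wholly on one side of the 3 control libraries for 19 of 28 members, 11 above and 8 below, against 68.1% of all tested genes. A log2 difference of at least 0.5 in size with a call was seen for 11 of 28 members, against 35.7% of all genes. One of at least 1 was seen for 3 of 28 (Plk3, Trp53inp1 and Dglucy), against 9.86% of all genes. This scale understates changes of low genes: the mean FPKM of Mdm4 and Polk was 2.17-fold and 2.02-fold lower in knockdown. Levels spanned a wide range: Phlda3 and Ephx1 exceeded 149 FPKM in every library, the median member stood at 13.7 FPKM and the median tested gene at 8.64.

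**Figure D1:**
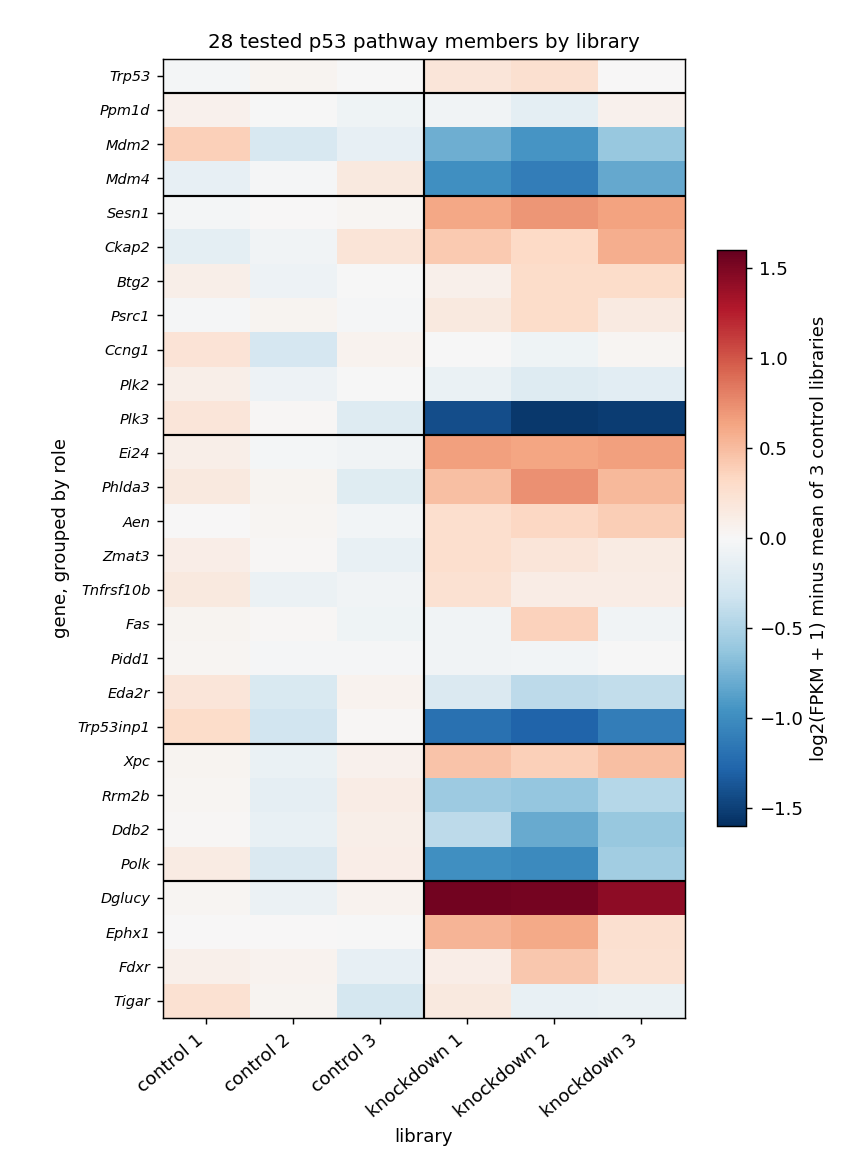
Each row is 1 of the 28 tested members, grouped by role, each column 1 library, and the colour gives log2(FPKM + 1) minus the mean of the 3 control libraries (red higher, blue lower). The deepest blue rows are Plk3, Trp53inp1 and Mdm4, the deepest red row is Dglucy, and the control columns are paler, with visible spread for Mdm2, Trp53inp1, Tigar and Ccng1 among others.

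Trp53 itself differed little between the groups, while the transcripts of both MDM proteins were lower. Trp53 (ENSMUSG00000059552, GRCm38 chromosome 11, 69580359 to 69591873, plus strand) stood at 49.2, 51.9 and 50.01 FPKM in control and at 57.6, 60.4 and 50.5 FPKM in knockdown. Knockdown library 3 fell among the controls. The log2 difference was 0.15 (95% interval -0.03 to 0.33, limma adjusted p = 0.134). Without knockdown library 3 it was 0.22 and passed the threshold (limma adjusted p = 0.0290), so this library decided the call.

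Mdm2, which encodes the ligase that marks p53 for breakdown (ENSMUSG00000020184, chromosome 10, 117688875 to 117710758, minus strand), had 79.6, 50.7 and 55.4 FPKM in control and 34.8, 31.0 and 39.5 FPKM in knockdown. Control library 1 stood well above the other controls, yet all 3 knockdown libraries lay below the lowest control. Mdm2 fell to 56.7% of its control mean, a log2 difference of -0.78 (SE 0.164, limma adjusted p = 0.00350). Without control library 1 the difference was -0.59 (limma adjusted p = 0.00344).

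Mdm4, which encodes the MDM2 relative that blocks p53's activation domain (ENSMUSG00000054387, chromosome 1, 132959484 to 133030561, minus strand), had 8.79, 9.58 and 10.9 FPKM in control and 4.41, 3.99 and 5.09 FPKM in knockdown. The groups were well apart, and 46.1% of the control mean was left. Its log2 difference was -0.97 (SE 0.104, limma adjusted p = 0.000108). Ppm1d, the phosphatase gene that p53 switches on and that dephosphorylates p53 in turn (ENSMUSG00000020525, chromosome 11, 85311244 to 85347066, plus strand), had 7.31, 6.85 and 6.55 FPKM in control and 6.604, 6.09 and 7.30 FPKM in knockdown. These ranges overlapped, and the log2 difference of -0.05 had a 95% interval of -0.24 to 0.15.

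Set against Trp53 in the same library, Mdm2 and Mdm4 separated the groups and Ppm1d did not. The ratio of Mdm2 to Trp53 FPKM was 1.62, 0.975 and 1.11 in control and 0.605, 0.513 and 0.782 in knockdown. For Mdm4 over Trp53 it was 0.179, 0.184 and 0.218 in control and 0.0767, 0.0661 and 0.101 in knockdown. Neither of these ratios overlapped between the groups, and each had a two-sided exact permutation p of 0.1, the smallest that 3 against 3 libraries allow. Mdm2 and Mdm4 alone also separated the groups, as did 68.1% of all tested genes, so these ratios are not independent of their falls. The ratio of Ppm1d to Trp53 was 0.149, 0.132 and 0.131 in control and 0.115, 0.101 and 0.144 in knockdown, which overlapped (two-sided exact permutation p = 0.3). The ratio of Mdm2 to Mdm4 was 5.08 to 9.06 in control and 7.76 to 7.89 in knockdown, so it overlapped (exact permutation p = 0.4).

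**Figure D2:**
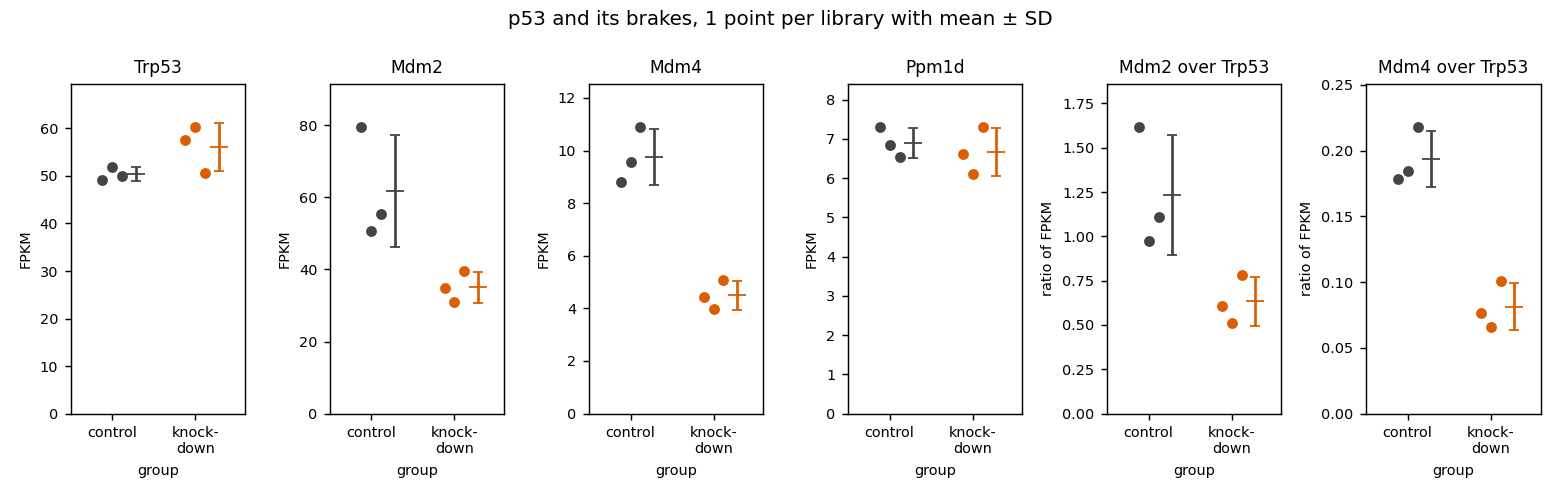
Points are single libraries, bars the mean ± SD of 3; the first 4 panels give FPKM and the last 2 the ratio of FPKM within a library, with all axes from 0. Mdm2 and Mdm4 lie lower in all knockdown libraries, at means of 35.1 against 61.9 and 4.50 against 9.76 FPKM, while Trp53 and Ppm1d overlap between the groups.

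Growth and cell cycle targets were divided. Their 7 genes gave 3 calls higher, 1 lower and 3 without a call, against 33.3% higher and 29.1% lower among all genes. Plk3, which encodes a stress-responsive polo-like kinase (ENSMUSG00000028680, chromosome 4, 117128655 to 117133963, minus strand), had 50.2, 44.3 and 37.9 FPKM in control and 15.8, 14.3 and 14.6 FPKM in knockdown. It fell to 33.7% of control, the largest fall among the tested members (log2 difference -1.498, SE 0.103, limma adjusted p = 1.34e-05). Its relative Plk2 averaged 59.5 ± 3.55 FPKM in control and 53.1 ± 1.86 in knockdown (SD, n = 3). For Plk2 the groups did not overlap, the log2 difference was -0.16 and the limma adjusted p was 0.0777. The ratio of Plk2 to Plk3 FPKM was 1.26 to 1.55 in the control libraries and 3.49 to 3.63 in the knockdown libraries (two-sided exact permutation p = 0.1, the smallest possible).

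Sesn1, which encodes sestrin 1, an inhibitor of mTORC1 signalling (ENSMUSG00000038332, chromosome 10, 41809935 to 41908424, plus strand), had 2.04, 2.12 and 2.19 FPKM in control and 3.801, 4.07 and 3.87 FPKM in knockdown. The replicates were tight and the groups far apart, with a 1.85-fold higher mean in knockdown (log2 difference 0.66, SE 0.0822, limma adjusted p = 0.000233). On recovered reads limma voom gave 0.86. Ckap2, a spindle protein gene, rose from 24.1 ± 3.26 to 32.9 ± 3.12 FPKM (limma adjusted p = 0.00750). Psrc1, another gene of spindle assembly, averaged 22.2 ± 0.549 and 25.6 ± 1.55 FPKM (SD, n = 3; limma adjusted p = 0.0345). The Psrc1 call was lost in 7 of 14 alternative analyses, and without control library 1, 2 or 3 or knockdown library 1 or 2 its limma adjusted p was 0.0826, 0.0553, 0.0897, 0.0606 or 0.115.

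Ccng1, which encodes cyclin G1, was abundant and did not separate the groups, with 80.9 ± 13.6 FPKM in control and 79.4 ± 3.00 in knockdown (SD, n = 3). Its log2 difference was -0.01, with a 95% interval of -0.28 to 0.26. Btg2, an antiproliferative gene, averaged 6.06 ± 0.428 and 7.25 ± 0.688 FPKM (SD, n = 3), a log2 difference of 0.22 (limma adjusted p = 0.0543). Without knockdown library 1 the Btg2 difference was 0.30 and passed (limma adjusted p = 0.0270).

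Death and survival targets also went both ways. Of 10, 9 were tested. Among these 3 were called higher, 2 lower and 4 neither, against 33.3% higher and 29.1% lower among all genes. Trp53inp1, which encodes a stress protein of cell death and autophagy (ENSMUSG00000028211, chromosome 4, 11156431 to 11174379, plus strand), had 23.2, 14.97 and 19.1 FPKM in control and 7.64, 7.17 and 8.23 FPKM in knockdown. The control libraries were scattered, but every knockdown library was well below them. Trp53inp1 fell to 40.2% of control (log2 difference -1.19, SE 0.140, limma adjusted p = 0.000166).

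Ei24, which encodes a membrane protein of the endoplasmic reticulum linked to autophagy (ENSMUSG00000062762, chromosome 9, 36779159 to 36797393, minus strand), had 14.9, 13.6 and 13.4 FPKM in control and 22.6, 22.2 and 22.5 FPKM in knockdown. The knockdown values were nearly equal and all above control (1.61-fold, log2 difference 0.65, SE 0.0667, limma adjusted p = 8.96e-05). Phlda3, which encodes an inhibitor of AKT (ENSMUSG00000041801, chromosome 1, 135766119 to 135769136, plus strand), had 189, 175 and 149 FPKM in control and 238, 284 and 244 FPKM in knockdown. All knockdown libraries were again the higher (1.49-fold, log2 difference 0.58, SE 0.109, limma adjusted p = 0.00204). Aen, a nuclease gene of apoptosis, rose from 17.3 ± 0.467 to 22.0 ± 1.03 FPKM (SD, n = 3; limma adjusted p = 0.00271).

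The death receptor genes gave little or no separation. Fas averaged 3.13 ± 0.167 and 3.44 ± 0.793 FPKM in control and knockdown (SD, n = 3), with 1 knockdown library at 4.35 FPKM and the others at 2.98 and 2.97. The 95% interval of its log2 difference was -0.21 to 0.38. Tnfrsf10b, the TRAIL receptor gene, averaged 13.2 ± 1.34 and 14.9 ± 0.805 FPKM (log2 difference 0.16, limma adjusted p = 0.127). Without control library 1 it passed (0.24, limma adjusted p = 0.0356).

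Eda2r, a receptor gene of the tumour necrosis factor family, averaged 11.03 ± 1.82 and 8.41 ± 0.651 FPKM (SD, n = 3). Its groups overlapped, since the lowest control library had 9.06 FPKM and the highest knockdown library 9.16, and the call (log2 difference -0.34, limma adjusted p = 0.0303) was lost in 6 of 14 alternatives. Among these were the fits without control library 1 or 3 and without knockdown library 2 or 3, with limma adjusted p of 0.0965, 0.0761, 0.0878 and 0.0818. Pidd1, which encodes the scaffold of the PIDDosome, averaged 8.53 ± 0.202 and 8.29 ± 0.148 FPKM, with a 95% interval of -0.18 to 0.11 for the log2 difference. Zmat3, an RNA-binding p53 target, averaged 14.4 ± 1.23 and 16.7 ± 0.839 FPKM (log2 difference 0.20, limma adjusted p = 0.0575) and passed without control library 1 (0.25, limma adjusted p = 0.0356). Perp, a desmosome gene and p53 target, was listed at 0 in all 6 libraries, where 3 reads would have given at most 0.103 FPKM.

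Of 4 genes of DNA repair and nucleotide supply, 3 were lower and 1 higher, in a comparison where 62.4% of all genes passed the threshold. Polk, which encodes a polymerase that copies past damaged bases (ENSMUSG00000021668, chromosome 13, 96480690 to 96542579, minus strand), had 7.98, 5.94 and 7.77 FPKM in control and 3.14, 3.03 and 4.54 FPKM in knockdown. Knockdown library 3 came closest to the controls, yet stayed below them. Polk fell to 49.4% of control (log2 difference -0.85, SE 0.148, limma adjusted p = 0.00130).

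Ddb2, which encodes a sensor of ultraviolet damage (ENSMUSG00000002109, chromosome 2, 91211572 to 91236982, minus strand), had 4.50, 4.01 and 4.76 FPKM in control and 3.05, 2.10 and 2.54 FPKM in knockdown. The groups did not overlap (log2 difference -0.61, SE 0.116, limma adjusted p = 0.00208). The exons of Ddb2 share 23.8% of their bases with Acp2 on the opposite strand, and no source used here gives the strand setting, so reads of both genes may be mixed. Acp2 averaged 8.495 FPKM in control and 9.64 in knockdown.

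Rrm2b, the p53-induced subunit of ribonucleotide reductase, which supplies DNA building blocks (ENSMUSG00000022292, chromosome 15, 37923952 to 37961318, minus strand), had 3.21, 2.72 and 3.47 FPKM in control and 1.76, 1.69 and 2.02 FPKM in knockdown. It fell to 58.1% of control with no overlap (log2 difference -0.55, SE 0.107, limma adjusted p = 0.00239). Xpc, which finds distorted DNA for nucleotide excision repair, went the other way, from 4.55 ± 0.367 to 6.52 ± 0.277 FPKM (SD, n = 3; log2 difference 0.44, limma adjusted p = 0.00165). Both Xpc and Ddb2 are known to act at the damage recognition step of that pathway. On recovered reads limma voom gave larger falls for the low genes, -1.05 for Polk, -0.82 for Ddb2 and -0.80 for Rrm2b.

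Metabolic targets held the largest rise among the members. Of 5, 4 were tested. Among these 2 were called higher, none lower and 2 neither, against 33.3% higher and 29.1% lower among all genes. Dglucy, which encodes D-glutamate cyclase, a mitochondrial enzyme (ENSMUSG00000021185, chromosome 12, 100779057 to 100896981, plus strand), had 10.7, 9.77 and 10.9 FPKM in control and 32.5, 32.0 and 29.9993 FPKM in knockdown. The spread within each group was small beside the 3.01-fold difference (log2 difference 1.503, SE 0.0709, limma adjusted p = 3.20e-06). Ephx1, a microsomal epoxide hydrolase gene of xenobiotic metabolism, had 186, 185 and 184 FPKM in control and 271, 282 and 222 FPKM in knockdown. Its control values were the closest of any tested member, and the rise (log2 difference 0.47, limma adjusted p = 0.00318) varied more between knockdown libraries.

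Fdxr, which encodes the mitochondrial enzyme ferredoxin reductase, averaged 3.35 ± 0.347 and 4.22 ± 0.582 FPKM (SD, n = 3). Fdxr had a log2 difference of 0.26 (limma adjusted p = 0.0664). Without knockdown library 1 it passed (0.33, limma adjusted p = 0.0429). Tigar, which encodes a fructose bisphosphatase that slows glycolysis, averaged 6.83 ± 1.38 and 6.65 ± 0.868 FPKM, with a 95% interval of -0.34 to 0.30 for its log2 difference. Gdf15, a secreted stress factor, was near the detection limit and not tested, with 11, 8 and 9 reads in the control libraries and 2, 1 and 8 in the knockdown libraries.

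**Figure D3:**
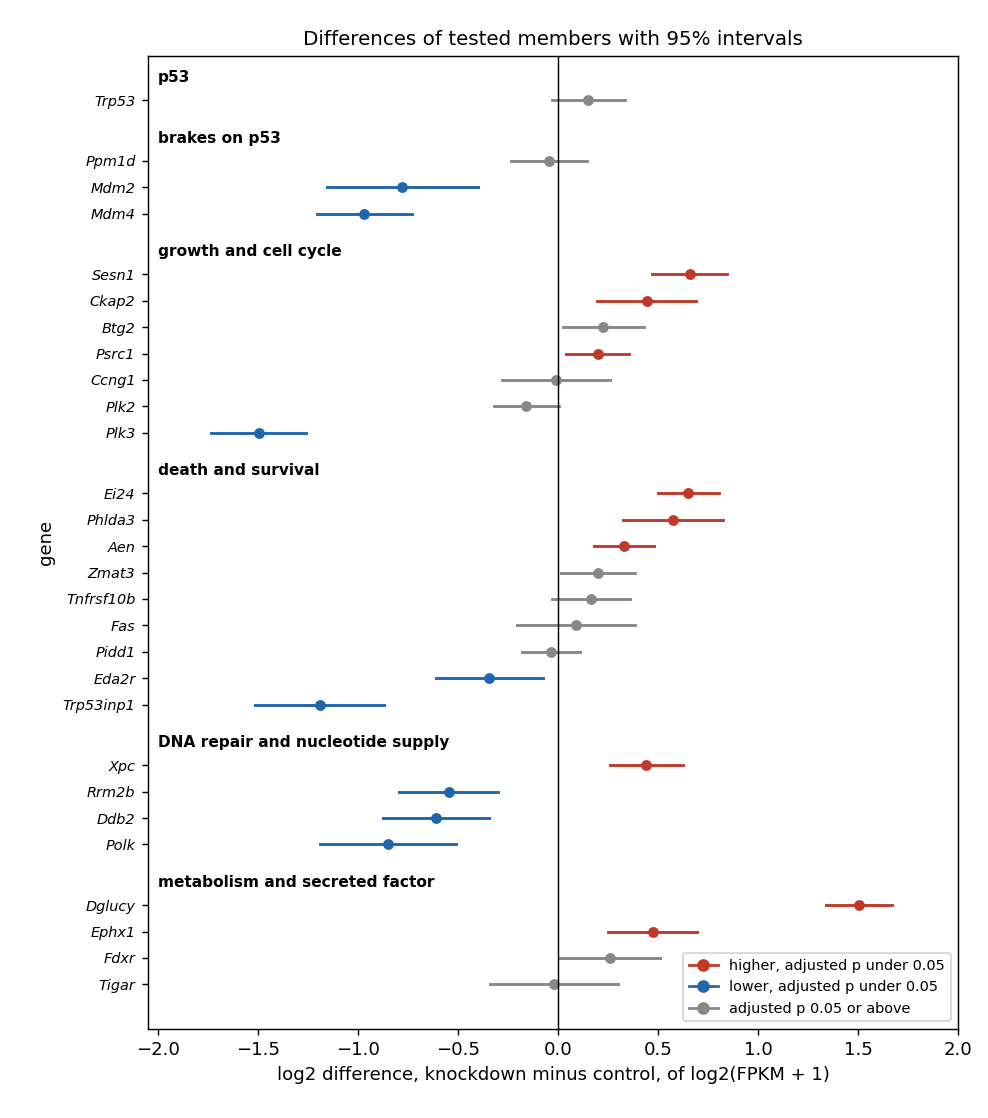
Points give the log2 difference of each tested member, knockdown minus control of log2(FPKM + 1), with its 95% interval from limma, grouped by role. Red marks 9 higher, blue 8 lower and grey 11 members not past an adjusted p of 0.05; the range runs from -1.498 for Plk3 to 1.503 for Dglucy.

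Spread between replicates differed among the members. In control the coefficient of variation, the SD as a percentage of the mean, ran from 0.366% for Ephx1 to 25.1% for Mdm2, with 21.6% for Trp53inp1, 20.3% for Tigar and 16.8% for Ccng1. Control library 1 held the highest control value for 18 of the 28 tested members and the lowest for 4. In knockdown the highest values were spread more evenly, with 9, 8 and 11 members highest in libraries 1, 2 and 3, while library 2 held the lowest value for 16. Exon overlap with another annotated gene was found for 7 of 30 members, covering between 3.32% of the exonic bases (Plk3) and the share given for Ddb2.

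Regulators that act on p53 from above were measured with a separate list of 27 genes, of which 22 were tested. The calls were 3 higher, 7 lower and 12 without a change past the threshold, against 33.3% higher and 29.1% lower among all genes, with a median log2 difference of 0.01. When a mean of at least 5 FPKM was required, which leaves fewer genes to test, 4 were called instead of 10. The damage kinase gene Atr fell from 1.95 ± 0.335 to 0.695 ± 0.0900 FPKM and Prkdc, the DNA-dependent protein kinase gene, from 2.76 ± 0.305 to 1.47 ± 0.158 (SD, n = 3; limma adjusted p = 0.000913 and 0.00154). Atm, the kinase that phosphorylates p53 after strand breaks, averaged 4.47 ± 0.712 and 3.36 ± 0.345 FPKM (limma adjusted p = 0.0369). The Atm call was lost without control library 1 or 3 or knockdown library 1 or 2, with limma adjusted p of 0.0669, 0.118, 0.111 and 0.0955, and with no filter on low values (0.102). Chek2 averaged 9.10 ± 0.432 and 9.90 ± 0.539 FPKM and did not pass (limma adjusted p = 0.213). Trim28, a corepressor that works with MDM2, rose from 89.7 ± 6.20 to 184 ± 14.6 FPKM, and Rpl5, a ribosomal protein that can bind MDM2, fell from 250 ± 20.5 to 167 ± 3.24 FPKM (SD, n = 3; limma adjusted p = 3.32e-05 and 0.000363). Cdkn2a, whose ARF product inhibits MDM2, was listed at 0 in all 6 libraries, where 3 reads would have given at most 0.171 FPKM.

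A list of 30 further direct p53 targets also held calls in both directions. The test covered 27, with 13 called higher, 10 called lower and 4 without a call, against 33.3% higher and 29.1% lower among all genes, and the median log2 difference was 0.25. Cdkn1a, which encodes p21, the inhibitor of cyclin-dependent kinases, averaged 142 ± 29.4 and 118 ± 7.03 FPKM (SD, n = 3). Its groups overlapped (log2 difference -0.25, 95% interval -0.56 to 0.06, limma adjusted p = 0.140). The Cdkn1a difference rested on single control libraries: without library 1 it was -0.09 (limma adjusted p = 0.425) and without library 3 it was -0.38 and passed (limma adjusted p = 0.0271). It also passed with voom (limma adjusted p = 0.0317) and with mitochondrial, rRNA and Gm23935 reads removed (limma adjusted p = 0.0402). Bbc3, which encodes the pro-death protein PUMA, fell from 36.9 ± 4.76 to 21.2 ± 1.66 FPKM (limma adjusted p = 0.000340), while Bax, which encodes a pore-forming protein of mitochondria, averaged 140 ± 7.09 and 167.0 ± 14.05 (limma adjusted p = 0.0302). The Bax call was lost without control library 1 or 3 or knockdown library 1 or 2, with limma adjusted p of 0.0586, 0.0902, 0.0705 and 0.101, and with no filter on low values (0.0659). Apaf1, the apoptosome scaffold gene, averaged 5.65 ± 0.516 and 4.80 ± 0.481 FPKM (limma adjusted p = 0.101) and passed with voom and with the replicate number as a block (limma adjusted p = 0.0436 and 0.0453). Pmaip1, the NOXA gene, was listed at 0 throughout. Gadd45a fell from 109 ± 7.603 to 15.02 ± 2.503 FPKM, whereas Thbs1, a matrix glycoprotein gene, rose from 6.65 ± 1.45 to 54.5 ± 9.93, Tap1, a peptide transporter gene, from 8.53 ± 0.343 to 23.4 ± 2.04 and Pml from 23.8 ± 1.03 to 47.5 ± 3.32. For these 4 genes the limma adjusted p ran from 2.09e-06 to 2.45e-05.

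Among 24 cell cycle genes that p53 is known to repress through p21 and the DREAM complex, 14 were called higher, 4 lower and 6 neither, against the background shares of 33.3% and 29.1%, with a median log2 difference of 0.33. Mybl2, which encodes the transcription factor B-MYB, rose from 12.7 ± 0.325 to 24.2 ± 0.749 FPKM and Aurkb, a mitotic kinase gene, from 26.3 ± 2.93 to 46.5 ± 0.332. Melk rose from 15.3 ± 0.887 to 23.7 ± 0.9499 and Ccna2, the cyclin A2 gene, from 25.5 ± 1.97 to 42.2 ± 2.89 (SD, n = 3). For Mybl2, Aurkb, Melk and Ccna2 the limma adjusted p ran from 1.56e-05 to 0.000164. Ccnb1, the cyclin B1 gene, averaged 30.4 ± 2.89 and 35.8 ± 2.29 FPKM (limma adjusted p = 0.0490), a call lost without control library 1 or 2 or knockdown library 1 or 3, with limma adjusted p of 0.149, 0.0619, 0.132 and 0.128. The Ccnb1 call was also lost with a pseudocount of 0.1, no filter, mitochondrial, rRNA and Gm23935 reads removed, or the replicate block (limma adjusted p = 0.0504, 0.0959, 0.217 and 0.0618). Mki67, a marker of cycling cells, went the other way, from 24.4 ± 3.62 to 11.7 ± 2.43 FPKM (limma adjusted p = 0.000475).

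**Figure D4:**
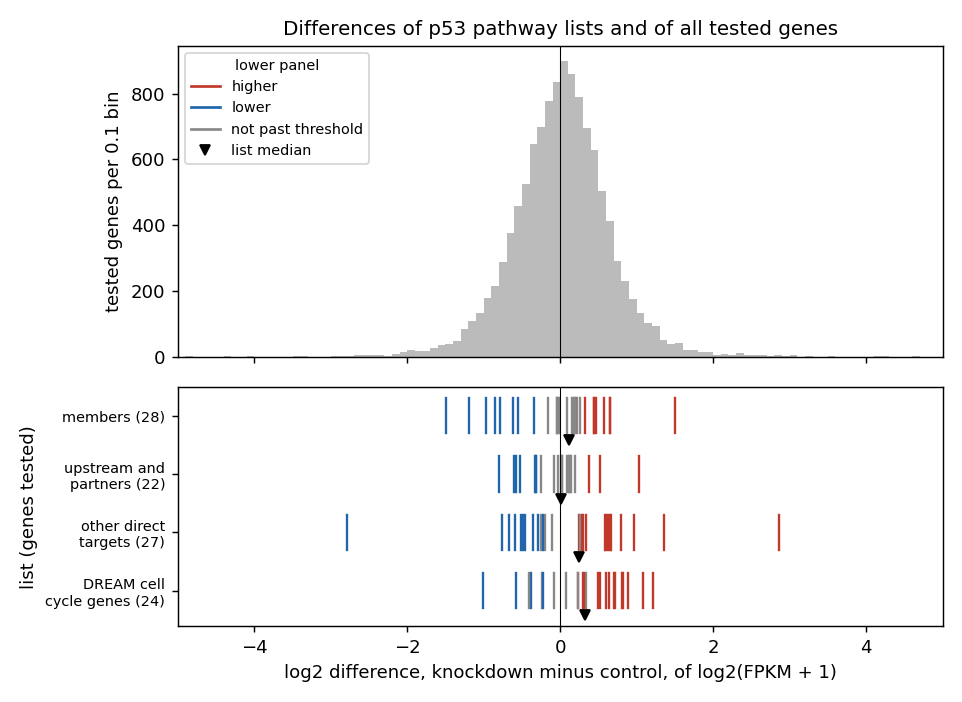
The upper panel counts all 11652 tested genes by log2 difference in bins of 0.1; the lower panel draws each tested gene of the 4 p53-related lists as a line (red higher, blue lower, grey not past the threshold) with the list median as a triangle. The medians are 0.12 for the members, 0.01 for upstream regulators, 0.25 for other direct targets and 0.33 for DREAM cell cycle genes, and all lists reach to both sides of 0.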

How the data were processed

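The authors deposited 1 table of FPKM values for 6 libraries, with gene name, position, strand and length. GRCm38 and mm10 are the builds named in the submitters' processing notes; no source used here names the aligner, the counter or the strand setting. Per the labels' protocols, Trizol was used for RNA and a TruSeq RNA kit for the libraries. FPKM times gene length was a whole multiple of 1 step for 100% of non-zero values within 0.01, which gave the reads; floors of 3 reads cover counting error only. Replicates differed beyond sampling noise (chi-square over its degrees of freedom, 7.15 to 10.96), so none were merged.

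Genes with a mean of at least 1 FPKM were tested on log2(FPKM + 1) by limma 3.58.1 (lmFit, then eBayes with trend; R 4.3.3), with Benjamini-Hochberg adjustment over all of them and a threshold of 0.05. The script was tested on simulated data. Differences on this scale understate changes of low genes. Promoters and tables used Python 3.11.15 and pandas 2.3.3. The members and lists were chosen with earlier results of these data known. Values by library are given for Trp53, Mdm2, Mdm4, Ppm1d and called members with a log2 difference of at least 0.5 in size, and for a few others. From the other lists, fixed genes and up to 4 genes with the smallest p are named. Positions equalled those of GENCODE M21 for 29 of 30 members. Alternatives changed the pseudocount, filter, scaling, weights, block or test, or left out 1 library.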

Additional observations from a re-analysis of the deposited data

How the results depend on the processing

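Over 14 alternatives, 8 to 10 members were called higher (9 as reported) and 6 to 9 lower (8 as reported), and the log2 difference of Ppp2ca ran from -1.81 to -1.61. Mdm2, Mdm4, Plk3, Trp53inp1, Polk, Aen, Ei24, Phlda3, Xpc, Ckap2, Ephx1 and Dglucy kept their direction and call in all 14, and Sesn1, Rrm2b and Ddb2 in the 13 in which they were tested. The count of changed upstream regulators moved from 10 to 4 when the filter was set at 5 FPKM, where fewer genes are tested. Signs turned for 4 members whose difference did not pass the threshold in any of these fits: with array weights Ccng1 was 0.0019 and Tigar 0.028, and leaving out each library gave -0.15 to 0.10 for Ccng1, -0.16 to 0.10 for Tigar, -0.10 to 0.0091 for Ppm1d and -0.054 to 0.16 for Fas. Plk2 passed with mitochondrial, rRNA and Gm23935 reads removed (-0.23, limma adjusted p = 0.0211) and with voom on recovered reads (-0.18, limma adjusted p = 0.0372). Zmat3 passed with voom and with array weights (limma adjusted p = 0.0381 and 0.0338). The deviations of same-numbered libraries from their group means had correlations of -0.0107, 0.159 and 0.0518 across genes, not every library correlated best with its own number, and the numbers were not taken to pair them. With the replicate number as a block, 7363 genes were called against 7267, 10 members were higher and 9 lower, and Plk2 and Zmat3 passed (limma adjusted p = 0.0490 and 0.0287). Where leaving out a library leaves 2 against 3, the spread is pooled over both groups. Depth limits the low members: Fas had 80 to 120 reads per library and Sesn1 130 to 248.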

Other observations

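A few genes of the p53 network lay below the level needed for the test and still differed between the groups; they were chosen after their values were seen. Ppp1r13b, which encodes ASPP1, a partner that steers p53 toward death genes, averaged 0.266 ± 0.105 FPKM in control and 1.32 ± 0.140 in knockdown (SD, n = 3), with no overlap. Sirt1, a deacetylase gene whose product acts on p53, averaged 0.363 ± 0.109 and 0.998 ± 0.150 FPKM, also with no overlap. Reads were few, at 14 to 30 per control library for Ppp1r13b and 22 to 41 for Sirt1. Of other untested genes, Sulf2 and Steap3 did not overlap either, while the groups of Gdf15 overlapped. Among all tested genes 68.1% did not overlap, and no such share was taken for genes below that level. Trp63 and Trp73, the relatives of Trp53, were at means of at most 0.114 and 0.0037 FPKM in either group.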
